A study of Homo sapiens and Mus musculus with 12 samples.

Results

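The response of MDA-MB-231 cells, a human triple-negative breast cancer line, to ponatinib was set beside that of 4T1 cells, a mouse mammary carcinoma line of BALB/c origin that is widely used as a model of triple-negative disease. The question was which genes responded alike in both lines, which responded in 1 line only, and which moved in opposite directions. Members were the protein-coding genes whose symbols match between the species when letter case is ignored. There were 16249 such genes, and the 9806 that passed a filter on low counts in each line were tested together. Shared symbols stand in for orthologues, and human symbols are used below for both lines.

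Both lines were grown in the same medium, labelled as wild type, and exposed for 24 h to 1 µM ponatinib or to its solvent DMSO. Each of the 4 groups had 3 libraries of total RNA, and no other agent or genotype was used. Each line is a single established culture, and MDA-MB-231 and 4T1 also differ in species, so line and species cannot be told apart in any difference between them. By the study's methods more 4T1 cells than MDA-MB-231 cells were plated per dish, and the plating density cannot be told apart from the line either. Ponatinib is an inhibitor of several tyrosine kinases, made against BCR-ABL and also active on receptors of the FGF, PDGF and VEGF families, KIT, RET and SRC-family kinases. Many of these kinases feed the RAS-RAF-MEK-ERK cascade, in which ERK drives transcription of early-response genes, of growth factors and of feedback inhibitors such as the Sprouty and DUSP families.

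Reads per gene were deposited as counts, and levels are given below as CPM, the counts of a gene per 1000000 counts of its library, scaled within each line. A change is the log2 ratio of ponatinib to DMSO ± its standard error (SE), positive where ponatinib was higher. The difference between the lines is the change in 4T1 cells minus that in MDA-MB-231 cells, which is the interaction of line and treatment in a single edgeR model of all 12 libraries. A gene was called at an adjusted p below 0.05, corrected over the 9806 genes. Libraries held 15012884 to 17301760 counts in MDA-MB-231 cells and 17800675 to 18951493 in 4T1 cells, of which 92.7% to 93.7% fell in shared genes. In every group the library numbered 1 stood further from the other 2 libraries than those stood from each other, so counts of genes were repeated without all libraries numbered 1. Of 10 epithelial markers, 8 reached a mean of 1 CPM in MDA-MB-231 cells with DMSO and 9 in 4T1 cells, keratins 8, 18 and 19 among them, while E-cadherin (*CDH1*) was at 0 in MDA-MB-231 cells and averaged 830 CPM in 4T1 cells. Of 7 mesenchymal markers, 5 reached it in MDA-MB-231 cells with DMSO and 6 in 4T1 cells. Vimentin (*VIM*) averaged 1286 and 3254 CPM there, and *CDH2* was below 1 CPM in both. Of 4 endothelial markers, only *KDR* reached 1 CPM with DMSO, at 4.44 CPM in MDA-MB-231 cells and 3.42 CPM in 4T1 cells. Of the receptors that define triple-negative disease by their absence, *PGR* was below 1 CPM in both lines, *ESR1* averaged 3.41 CPM in 4T1 cells with DMSO, and *ERBB2* transcripts were present in both. Of the leukocyte markers, *PTPRC* was at 0 in MDA-MB-231 cells and averaged at most 0.11 CPM in 4T1 cells, and *CD3E* averaged at most 0.021 CPM in any group. *CD68* averaged 1.88 CPM with DMSO and 1.54 CPM with ponatinib in 4T1 cells, and *CSF1R* averaged 0.734 CPM with DMSO and 1.80 CPM with ponatinib in MDA-MB-231 cells. In bulk RNA of this kind, fewer cells in a given state and less RNA per cell cannot be told apart.

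About as many genes responded in either line, but many were not the same ones. In MDA-MB-231 cells 3308 genes (33.7% of those tested) were lower with ponatinib and 2645 (27.0%) were higher, and in 4T1 cells 3134 (32.0%) were lower and 2938 (30.0%) higher. The median absolute log2 change was 0.37 in MDA-MB-231 cells and 0.36 in 4T1 cells, against median SEs of 0.11 in each. The balance of falls and rises depended on the scaling. With libraries scaled by total counts, the median change over all genes went from -0.051 to 0.044 in MDA-MB-231 cells and from -0.019 to 0.098 in 4T1 cells, and the share of calls that were rises went from 44.4% to 54.8% and from 48.4% to 61.8%. Of the genes lowered in MDA-MB-231 cells, 46.7% were also lowered in 4T1 cells, 17.5% were raised there and 35.8% were not called. Of the genes raised in MDA-MB-231 cells, 48.2% were also raised in 4T1 cells and 20.2% were lowered. Across the 9806 genes, which are not independent replicates and share the same 12 libraries, Pearson's r between the changes in the 2 lines was 0.28 and Spearman's rho was 0.30.

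The difference between the lines itself was called for 5054 genes. It was positive, so that the change was more upward or less downward in 4T1 cells, for 2829 (28.8%), and negative for 2225 (22.7%). Genes called in both lines in the same direction numbered 1544 lower (15.7%) and 1275 higher (13.0%). Responding alike was held to a stricter standard, namely the same direction in both lines and a 95% interval of the difference that stayed within 1.5-fold either way. That left 840 genes lowered alike (8.57%) and 453 raised alike (4.62%), in all 1293, a count that rose to 1982 when the replicate number was fitted as a block. A further 572 genes called in the same direction had no called difference but an interval wider than 1.5-fold, so that they were shown neither to respond alike nor to differ. Opposite calls with a called difference were made for 534 genes higher in MDA-MB-231 cells (5.45%) and 579 higher in 4T1 cells (5.90%). The groups of 3 libraries did not overlap in either line for 977 of these 1113 genes. These genes were chosen by a call in both lines, so the count is not independent of that choice. Over all tested genes, with each line taken alone, the groups did not overlap for 63.1% in MDA-MB-231 cells and 67.0% in 4T1 cells. A change of at least 1.5-fold in 1 line, with the 95% interval of the other line's change inside 1.5-fold and a called difference, was found for 594 genes lowered (6.06%) and 432 raised (4.41%) in MDA-MB-231 cells alone, and for 384 lowered (3.92%) and 502 raised (5.12%) in 4T1 cells alone. With total counts, rises made up 64.2% in place of 45.2% of the genes called in the same direction, 56.6% in place of 35.0% of those alike and 73.6% in place of 56.7% of those of 4T1 cells alone, and with scaling factors computed over all 12 libraries together they made up 52.8% in place of 42.1% of those of MDA-MB-231 cells alone. These sets overlap in part, since a change too small to reach 1.5-fold can still be called: 113 of the 1026 genes of MDA-MB-231 cells and 86 of the 886 genes of 4T1 cells also count as opposite. With scaling factors computed over all 12 libraries together, opposite calls numbered 600 higher in MDA-MB-231 cells and 504 higher in 4T1 cells. Called differences were then positive for 2541 genes and negative for 2476.

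**Figure D1:**
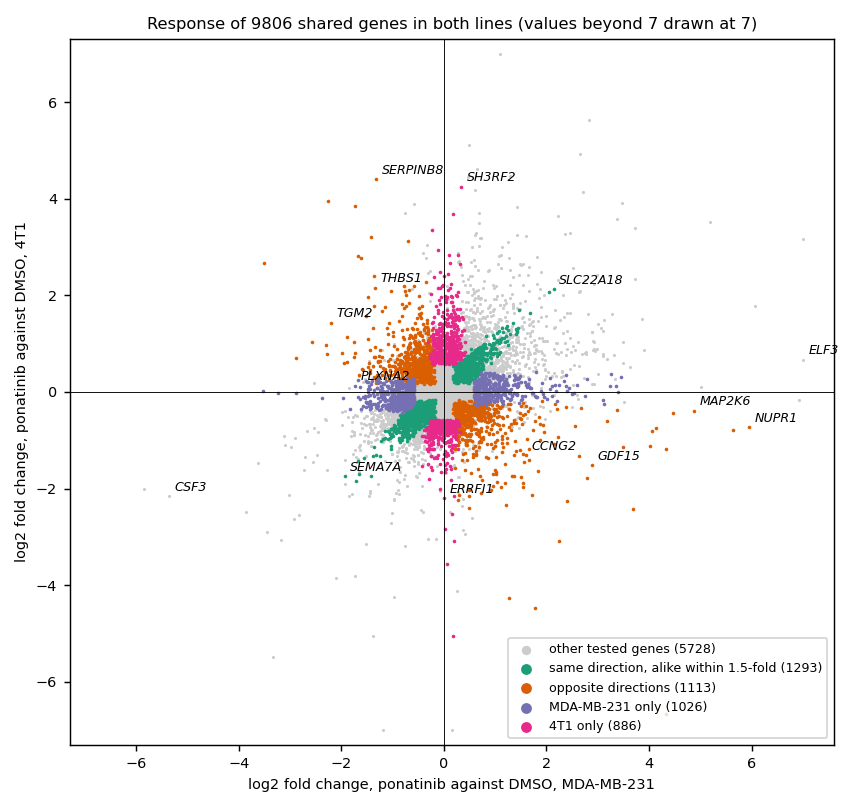
Log2 fold change of ponatinib against DMSO in MDA-MB-231 cells (horizontal) and in 4T1 cells (vertical) for the 9806 shared genes, 1 point per gene. Colours mark genes that responded alike, in opposite directions or in 1 line only, with a gene in several sets drawn in 1 colour. The 1293 genes that responded alike lie along the rising diagonal, the 1113 opposite genes lie in the upper left and lower right quadrants, and the genes of 1 line lie along an axis.

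Among the genes lowered alike with the largest changes were genes of growth signalling and of cell cycle entry. *SEMA7A*, a membrane-anchored semaphorin, was at 84.3, 81.8 and 94.2 CPM with DMSO and 22.3, 23.9 and 21.7 CPM with ponatinib in MDA-MB-231 cells. In 4T1 cells *SEMA7A* was at 32.8, 32.2 and 34.1 CPM with DMSO and 9.76, 9.65 and 10.2 CPM with ponatinib. Its log2 change was -1.94 ± 0.086 in MDA-MB-231 cells and -1.74 ± 0.094 in 4T1 cells, a difference of 0.20 (95% interval -0.069 to 0.47, adjusted p = 0.203). *HMGA1*, an architectural chromatin protein, was at 2926, 2384 and 2686 CPM with DMSO and 905, 753 and 772 CPM with ponatinib in MDA-MB-231 cells. In 4T1 cells *HMGA1* was at 1109.6, 1124 and 1011 CPM with DMSO and 298, 287 and 315 CPM with ponatinib. All ponatinib libraries lay below all DMSO libraries in each line, and the changes of -1.72 ± 0.094 in MDA-MB-231 cells and -1.85 ± 0.094 in 4T1 cells differed by -0.13 (95% interval -0.41 to 0.15, adjusted p = 0.418). *HMGA1* has processed pseudogenes in both genomes, so its counts depend on how shared reads were assigned. *CDC6*, which loads the replicative helicase at origins, was at 142, 158 and 159 CPM with DMSO and 45.3, 47.6 and 50.5 CPM with ponatinib in MDA-MB-231 cells. In 4T1 cells *CDC6* was at 42.5, 41.3 and 42.7 CPM with DMSO and 16.04, 15.4 and 15.4 CPM with ponatinib. The changes were -1.68 ± 0.075 in MDA-MB-231 cells and -1.43 ± 0.082 in 4T1 cells. *ODC1*, the rate-limiting enzyme of polyamine synthesis, changed by -1.42 ± 0.067 in MDA-MB-231 cells and -1.75 ± 0.065 in 4T1 cells. Its difference of -0.33 (95% interval -0.53 to -0.13, adjusted p = 0.00705) was itself called, yet stayed within 1.5-fold, as it did for 82 genes in all. The remaining genes named here as lowered alike were *IER3*, an early-response regulator of apoptosis, at -1.55 ± 0.10 in MDA-MB-231 cells and -1.37 ± 0.10 in 4T1 cells, and *WNT7B*, a Wnt ligand, at -1.38 ± 0.10 in MDA-MB-231 cells and -1.33 ± 0.079 in 4T1 cells. With the replicate block, small differences within 1.5-fold were called for *CDC6* (0.25, adjusted p = 0.0254) and *IER3* (0.18, adjusted p = 0.046).

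The genes named as raised alike were a transporter, enzymes of sterol synthesis, of detoxification and of the lysosome, and an electron carrier. *SLC22A18*, a transporter of the organic cation family, was at 13.6, 11.1 and 13.4 CPM with DMSO and 61.7, 54.6 and 52.1 CPM with ponatinib in MDA-MB-231 cells. In 4T1 cells *SLC22A18* was at 14.3, 11.2 and 12.5 CPM with DMSO and 55.8, 52.4 and 57.6 CPM with ponatinib. All ponatinib libraries lay above all DMSO libraries in each line, and the changes were 2.14 ± 0.11 in MDA-MB-231 cells and 2.12 ± 0.11 in 4T1 cells, a difference of -0.017 (95% interval -0.35 to 0.32, adjusted p = 0.939). *TM7SF2*, a sterol reductase of cholesterol synthesis, was at 19.2, 16.2 and 19.8 CPM with DMSO and 84.8, 75.4 and 67.9 CPM with ponatinib in MDA-MB-231 cells. In 4T1 cells *TM7SF2* was at 9.12, 8.05 and 9.51 CPM with DMSO and 34.99, 35.3 and 42.1 CPM with ponatinib. Its changes of 2.04 ± 0.11 in MDA-MB-231 cells and 2.07 ± 0.12 in 4T1 cells differed by 0.029 (95% interval -0.32 to 0.38, adjusted p = 0.898). *EPHX1*, the microsomal epoxide hydrolase, rose by 1.69 ± 0.089 and 1.63 ± 0.084, and *CAT*, the catalase that breaks down hydrogen peroxide, rose by 1.34 ± 0.093 and 1.42 ± 0.094. *CYB5A*, an electron carrier of the endoplasmic reticulum, changed by 1.47 ± 0.10 in MDA-MB-231 cells and 1.70 ± 0.083 in 4T1 cells, and *MANBA*, the lysosomal beta-mannosidase, by 1.44 ± 0.11 in MDA-MB-231 cells and 1.32 ± 0.092 in 4T1 cells. The difference of *CYB5A* was called with the replicate block (0.23, adjusted p = 0.0484). Genes were named here, and among those lowered alike, only where the ponatinib and DMSO libraries did not overlap in either line.

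Genes were also grouped in lists drawn from known pathways. For each list the numbers called are to be read against the shares of all genes given above, with 33.7% lower and 27.0% higher in MDA-MB-231 cells and 32.0% lower and 30.0% higher in 4T1 cells. The median change over all tested genes was -0.051 in MDA-MB-231 cells and -0.019 in 4T1 cells. Of the 24 MAPK output genes tested, the direct read-out of ERK signalling, 21 fell and 1 rose in MDA-MB-231 cells, and 19 fell and 2 rose in 4T1 cells. Their median log2 change was -1.54 in MDA-MB-231 cells and -0.90 in 4T1 cells, and the difference was called upward in 4T1 cells for 14 and downward for 3. *FOSL1*, an AP-1 subunit stabilised by ERK, was at 944, 819 and 803 CPM with DMSO and 141, 124 and 124 CPM with ponatinib in MDA-MB-231 cells. In 4T1 cells *FOSL1* was at 738, 653 and 658 CPM with DMSO and 221, 210.0 and 234 CPM with ponatinib. Its changes were -2.72 ± 0.086 in MDA-MB-231 cells and -1.62 ± 0.086 in 4T1 cells, so that it fell in both lines and fell further in MDA-MB-231 cells (difference 1.10 (95% interval 0.84 to 1.35, adjusted p = 1.11e-06)). *EPHA2*, an ephrin receptor that is also an ERK target, changed by -1.63 ± 0.091 in MDA-MB-231 cells and -1.11 ± 0.090 in 4T1 cells.

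Most members of the cell cycle and ribosome biogenesis lists fell in each line. All 56 G1/S replication genes tested were lower in MDA-MB-231 cells, whereas 37 were lower and 5 higher in 4T1 cells. Median changes were -1.09 in MDA-MB-231 cells and -0.46 in 4T1 cells, and the difference was called upward in 4T1 cells for 38 and downward for 0 of them. *RRM2*, the regulatory subunit of ribonucleotide reductase, was at 322, 365 and 356 CPM with DMSO and 40.8, 45.04 and 45.3 CPM with ponatinib in MDA-MB-231 cells. In 4T1 cells *RRM2* was at 114, 120.2 and 122 CPM with DMSO and 51.02, 55.7 and 54.6 CPM with ponatinib. It fell in each line, with changes of -2.99 ± 0.076 and -1.14 ± 0.076. *GINS2*, a subunit of the replicative helicase complex, fell in MDA-MB-231 cells (-1.41 ± 0.15) and was not called in 4T1 cells (0.28 ± 0.15, adjusted p = 0.119), while *CCNE1*, the cyclin of G1/S entry, fell in both lines (-1.66 ± 0.15 in MDA-MB-231 cells and -1.69 ± 0.19 in 4T1 cells). The 4T1 change of *GINS2* was called higher with the replicate block (0.29, adjusted p = 0.0258), with total counts (0.40), without 4T1 DMSO library 1 (0.45) and without all libraries numbered 1 (0.43). Of 84 G2/M and mitotic genes, 68 fell and 2 rose in MDA-MB-231 cells, and 55 fell and 3 rose in 4T1 cells. *CENPM*, a centromere protein, moved in opposite directions (-0.86 ± 0.12 in MDA-MB-231 cells and 0.63 ± 0.13 in 4T1 cells), and *NCAPH*, a condensin subunit, fell alike (-0.91 ± 0.080 in MDA-MB-231 cells and -0.80 ± 0.079 in 4T1 cells). Of 64 ribosome biogenesis genes, 61 fell and 0 rose in MDA-MB-231 cells, and 50 fell and 0 rose in 4T1 cells, with 22 that fell at least 1.5-fold in MDA-MB-231 cells alone. *BYSL*, a factor of small-subunit assembly, was among these (-1.31 ± 0.078 in MDA-MB-231 cells and -0.049 ± 0.078 in 4T1 cells), and *NOP58*, a core protein of nucleolar ribonucleoproteins, fell alike (-1.04 ± 0.091 in MDA-MB-231 cells and -0.89 ± 0.088 in 4T1 cells). In contrast, the 78 cytosolic ribosomal proteins changed little, with medians of -0.022 in MDA-MB-231 cells and -0.13 in 4T1 cells, the former 0.072 when scaled by total counts, and a called difference for 12.8% of them.

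E2F factors drive G1/S genes, and the promoter of *POLA1*, the catalytic subunit of DNA polymerase alpha, is shown because it is one of the few with a match to the E2F motif in both species. The 200 bases before the gene start are printed from 5′ to 3′ on the coding strand, with the match in capitals. The human sequence is from RefSeq on GRCh38.p14 (chrX:24693718-24693917, plus strand) and the mouse sequence was read from GRCm39 (chrX:92675814-92676013, minus strand) at the start of the GENCODE gene.
*POLA1*, human: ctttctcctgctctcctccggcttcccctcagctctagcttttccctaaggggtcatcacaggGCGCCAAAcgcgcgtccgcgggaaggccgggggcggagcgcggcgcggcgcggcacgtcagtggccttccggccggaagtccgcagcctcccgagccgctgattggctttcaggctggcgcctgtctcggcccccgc
*Pola1*, mouse: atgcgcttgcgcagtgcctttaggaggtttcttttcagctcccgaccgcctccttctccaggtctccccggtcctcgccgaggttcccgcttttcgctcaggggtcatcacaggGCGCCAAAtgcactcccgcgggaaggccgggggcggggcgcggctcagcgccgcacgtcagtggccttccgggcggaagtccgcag
The motif searched was TTTCCCGC or TTTGGCGC on either strand. It lay in 14 of 47 human G1/S promoters with a sequence (29.8%) and in 4 of 56 mouse promoters (7.14%), against 2.19% of the 13013 human and 1.51% of the 16249 mouse promoters of all shared genes, and in both species for 2 list members. *POLA1* was at 19.3, 22.05 and 20.8 CPM with DMSO and 14.7, 12.98 and 15.4 CPM with ponatinib in MDA-MB-231 cells. In 4T1 cells *POLA1* was at 21.4, 31.9 and 33.7 CPM with DMSO and 19.2, 23.2 and 21.6 CPM with ponatinib. It fell in both lines, with changes of -0.53 ± 0.15 and -0.44 ± 0.14, but the 4T1 call was lost without DMSO library 2 or 3 or ponatinib library 1, at changes of -0.37, -0.32 and -0.37, and with total counts, at -0.33. A match describes the letters only.

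In the sterol, fatty acid oxidation, lysosomal, ciliary and interferon lists more genes rose than fell in each line. Of 24 sterol synthesis genes, 1 fell and 17 rose in MDA-MB-231 cells, and 3 fell and 18 rose in 4T1 cells. *MVD*, mevalonate diphosphate decarboxylase, rose alike (1.11 ± 0.12 in MDA-MB-231 cells and 1.10 ± 0.15 in 4T1 cells). *ACSS2*, which makes acetyl-CoA from acetate, was at 37.8, 34.7 and 30.97 CPM with DMSO and 278, 268 and 269.7 CPM with ponatinib in MDA-MB-231 cells. In 4T1 cells *ACSS2* was at 6.06, 3.94 and 5.74 CPM with DMSO and 29.8, 27.4 and 26.8 CPM with ponatinib. Its rise was 2.98 ± 0.10 in MDA-MB-231 cells and 2.41 ± 0.13 in 4T1 cells. Of 19 genes of fatty acid synthesis and desaturation, 6 fell and 10 rose in MDA-MB-231 cells, and 3 fell and 12 rose in 4T1 cells. Of 24 genes of fatty acid oxidation and PPAR targets, 3 fell and 13 rose in MDA-MB-231 cells, and 2 fell and 18 rose in 4T1 cells. *ECH1*, an enzyme of peroxisomal and mitochondrial beta-oxidation, rose alike (1.09 ± 0.13 in MDA-MB-231 cells and 1.04 ± 0.13 in 4T1 cells). *ANGPTL4*, a PPAR target that inhibits lipoprotein lipase, fell in MDA-MB-231 cells (-3.54 ± 0.32), and in 4T1 cells its change was 0.015 ± 0.11 (adjusted p = 0.919). Of 12 LXR targets and cholesterol exporters, 2 fell and 6 rose in MDA-MB-231 cells, and 2 fell and 7 rose in 4T1 cells. *NR1H3*, which encodes LXR alpha, rose in both (1.71 ± 0.13 in MDA-MB-231 cells and 1.26 ± 0.12 in 4T1 cells), as did the transporter *ABCA2* (1.13 ± 0.090 in MDA-MB-231 cells and 1.11 ± 0.088 in 4T1 cells). The difference of *NR1H3* was called (-0.46 (95% interval -0.82 to -0.088, adjusted p = 0.0368)), a call that was lost in 9 of 22 alternatives, among them limma-voom (-0.44) and the fit without all libraries numbered 1 (-0.33).

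Of 66 genes of the lysosome and V-ATPase, 11 fell and 37 rose in MDA-MB-231 cells, and 4 fell and 48 rose in 4T1 cells. *NEU1*, the lysosomal sialidase, was at 126, 113 and 111 CPM with DMSO and 162, 160.1 and 159.6 CPM with ponatinib in MDA-MB-231 cells. In 4T1 cells *NEU1* was at 77.5, 78.8 and 82.4 CPM with DMSO and 383, 411 and 417 CPM with ponatinib. It rose in both lines, but by 0.46 ± 0.072 in the former and 2.34 ± 0.071 in the latter. *CTSD*, the protease cathepsin D, showed the reverse order (2.29 ± 0.13 in MDA-MB-231 cells and 0.41 ± 0.13 in 4T1 cells), with a 4T1 call that was lost without DMSO library 2 or ponatinib library 3, at 0.35 and 0.37. *TFEB*, a regulator of lysosomal genes, rose alike (1.23 ± 0.13 in MDA-MB-231 cells and 1.36 ± 0.12 in 4T1 cells). The CLEAR motif TCACGTGA, to which TFEB binds, lay in 7 of 46 human lysosomal promoters (15.2%, against 1.30% of all) and in 2 of 66 mouse promoters (3.03%, against 0.677%). Of 49 genes of the cilium and intraflagellar transport, 3 fell and 25 rose in MDA-MB-231 cells, and 5 fell and 29 rose in 4T1 cells, with medians of 0.38 in MDA-MB-231 cells and 0.40 in 4T1 cells. *DYNC2LI1*, a subunit of the retrograde motor, rose alike (1.08 ± 0.19 in MDA-MB-231 cells and 1.08 ± 0.17 in 4T1 cells), but *BBS9*, a BBSome subunit, was raised in MDA-MB-231 cells and lowered in 4T1 cells (0.82 ± 0.14 in MDA-MB-231 cells and -1.35 ± 0.12 in 4T1 cells).

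Of 41 interferon-stimulated genes, 2 fell and 29 rose in MDA-MB-231 cells, and 4 fell and 33 rose in 4T1 cells, with medians of 0.69 in MDA-MB-231 cells and 1.14 in 4T1 cells, and 22 rose in both lines. *GBP2*, a guanylate-binding protein, was at 4.702, 6.79 and 5.21 CPM with DMSO and 31.8, 30.5 and 30.1 CPM with ponatinib in MDA-MB-231 cells. In 4T1 cells *GBP2* was at 0.113, 0.167 and 0.382 CPM with DMSO and 1.79, 2.48 and 2.44 CPM with ponatinib. Its changes were 2.46 ± 0.16 in MDA-MB-231 cells and 3.29 ± 0.45 in 4T1 cells, and their difference of 0.82 was not called but came to 1.46, with a call, without 4T1 DMSO library 3. *IFIT3*, an antiviral protein with tetratricopeptide repeats, is shown with its promoter because interferon-stimulated response element (ISRE) matches lay there in both species. The element was searched as GAAA, any 2 bases and GAAA on either strand, and its 2 matches are in capitals in the human sequence (chr10:89327797-89327996, plus strand) and in the mouse sequence (chr19:34560699-34560898, plus strand), given as for *POLA1*.
*IFIT3*, human: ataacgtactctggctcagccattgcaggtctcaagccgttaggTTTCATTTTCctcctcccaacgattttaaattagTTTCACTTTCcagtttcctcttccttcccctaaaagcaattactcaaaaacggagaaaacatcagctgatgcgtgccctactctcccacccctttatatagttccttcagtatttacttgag
*Ifit3*, mouse: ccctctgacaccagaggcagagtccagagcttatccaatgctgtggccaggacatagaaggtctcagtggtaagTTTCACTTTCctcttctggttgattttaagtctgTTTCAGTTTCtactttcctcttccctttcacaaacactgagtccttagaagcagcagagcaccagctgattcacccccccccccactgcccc
Such matches lay in 13 of 31 human promoters of the list (41.9%, against 1.94% of all) and in 8 of 41 mouse promoters (19.5%, against 2.47%), in 6 members in both species. *IFIT3* was at 50.7, 57.1 and 61.1 CPM with DMSO and 158, 167 and 167 CPM with ponatinib in MDA-MB-231 cells. In 4T1 cells, which hold little of it, it was at 0.227, 0.167 and 0.218 CPM with DMSO and 0.613, 0.568 and 0.6501 CPM with ponatinib. The libraries did not overlap in either line, and the changes were 1.54 ± 0.080 in MDA-MB-231 cells and 1.55 ± 0.39 in 4T1 cells, a difference of 0.006 (95% interval -0.83 to 0.84, adjusted p = 0.955) whose interval is wide at these low counts. Of 17 antigen presentation genes, 2 fell and 10 rose in MDA-MB-231 cells, and 5 fell and 12 rose in 4T1 cells, and 4 counted as opposite. *CD74*, the invariant chain of MHC class II, went up in MDA-MB-231 cells and down in 4T1 cells (1.02 ± 0.12 in MDA-MB-231 cells and -1.69 ± 0.19 in 4T1 cells), and *CD274*, which encodes PD-L1, did the opposite (-2.28 ± 0.16 in MDA-MB-231 cells and 0.80 ± 0.16 in 4T1 cells).

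**Figure D2:**
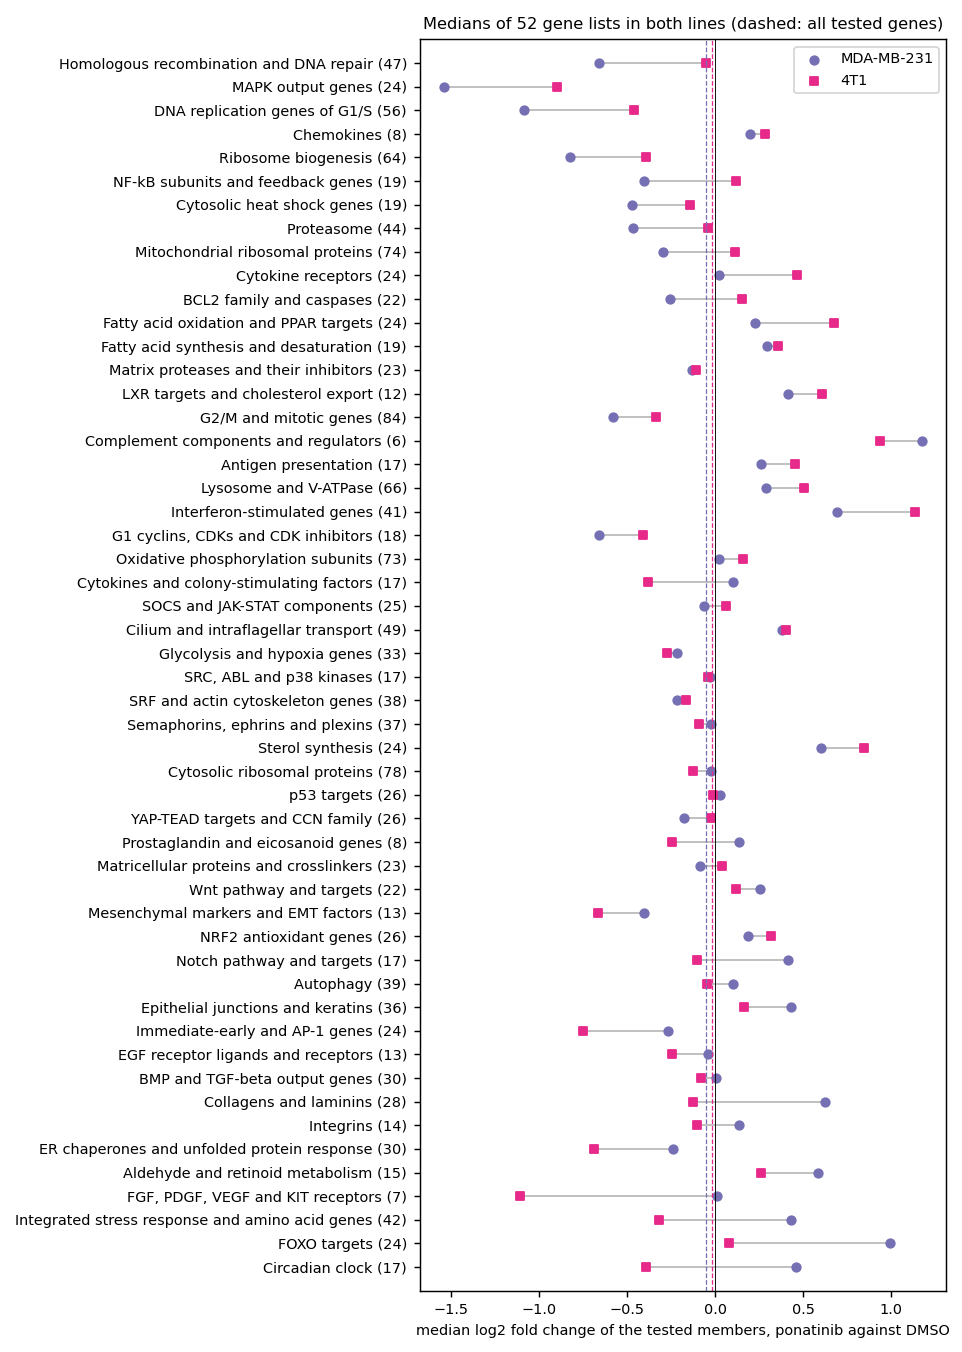
Median log2 fold change of ponatinib against DMSO over the tested members of each gene list, in MDA-MB-231 cells and in 4T1 cells. Lists of the MAPK, cell cycle and ribosome biogenesis genes lie below 0 in both lines, those of interferon, sterol and lysosomal genes lie above 0 in both, and those of the integrated stress response (0.43 and -0.32) and the circadian clock (0.46 and -0.39) lie on either side.

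A called difference was also found for 1036 genes that moved in the same direction, 626 with the larger change in MDA-MB-231 cells and 410 with the larger change in 4T1 cells. The former included feedback and effector genes of ERK. *SPRY4*, a Sprouty inhibitor of receptor signalling, was at 49.8, 53.5 and 53.2 CPM with DMSO and 7.31, 5.73 and 5.03 CPM with ponatinib in MDA-MB-231 cells. In 4T1 cells *SPRY4* was at 38.2, 37.8 and 36.4 CPM with DMSO and 22.01, 19.4 and 18.04 CPM with ponatinib. It fell in both lines, with changes of -3.12 ± 0.13 and -0.92 ± 0.11, a difference of 2.20 (95% interval 1.85 to 2.55, adjusted p = 1.15e-08). *ETV4*, an ETS factor downstream of ERK, changed by -3.62 ± 0.10 in MDA-MB-231 cells and -1.46 ± 0.085 in 4T1 cells, and *MAFF*, a small MAF transcription factor, by -3.09 ± 0.085 in MDA-MB-231 cells and -1.10 ± 0.074 in 4T1 cells. *CSF3*, which encodes the growth factor G-CSF, was at 31.99, 29.03 and 31.1 CPM with DMSO and 1.07, 0.573 and 0.601 CPM with ponatinib in MDA-MB-231 cells. In 4T1 cells *CSF3* was at 15.7, 12.1 and 16.2 CPM with DMSO and 3.78, 2.68 and 3.41 CPM with ponatinib, a change of -5.36 ± 0.27 in MDA-MB-231 cells and -2.15 ± 0.17 in 4T1 cells. Among raised genes, *ELF3*, an epithelial ETS factor, was at 0.0628 to 0.0662 CPM with DMSO and 11.5 to 13.9 CPM with ponatinib in MDA-MB-231 cells. This rested on 3 counts over the DMSO libraries against 628 over the ponatinib libraries, a ratio of 195 (95% exact binomial interval 66.4 to 948, covering counting error only). In 4T1 cells, which held 35.9 to 36.998 CPM before treatment, *ELF3* rose by 0.67 ± 0.086. *BMF*, a pro-apoptotic BH3-only protein, rose by 3.86 ± 0.16 in MDA-MB-231 cells and 1.51 ± 0.10 in 4T1 cells, and *PIK3C2B*, a class II PI3-kinase, by 3.11 ± 0.19 and 0.74 ± 0.13.

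Genes with the larger change in 4T1 cells included AP-1 and matrix genes. *JUN*, an AP-1 subunit, was at 593, 553 and 580.1 CPM with DMSO and 202, 199 and 198 CPM with ponatinib in MDA-MB-231 cells. In 4T1 cells *JUN* was at 167, 161 and 155 CPM with DMSO and 19.9, 17.03 and 17.3 CPM with ponatinib. It fell in both lines, with changes of -1.53 ± 0.071 and -3.16 ± 0.078, a difference of -1.63 (95% interval -1.85 to -1.40, adjusted p = 2.2e-09). *TNC*, the matrix protein tenascin C, changed by -1.74 ± 0.11 in MDA-MB-231 cells and -3.81 ± 0.23 in 4T1 cells, *TM4SF1*, a tetraspanin-like membrane protein, by -0.76 ± 0.092 in MDA-MB-231 cells and -3.20 ± 0.17 in 4T1 cells, and *PLK3*, a polo-like kinase, by -0.43 ± 0.095 in MDA-MB-231 cells and -1.95 ± 0.089 in 4T1 cells. Raised further in 4T1 cells were *CMBL*, a hydrolase (0.53 ± 0.10 in MDA-MB-231 cells and 2.69 ± 0.12 in 4T1 cells), and *GM2A*, the GM2 ganglioside activator of the lysosome (0.50 ± 0.086 in MDA-MB-231 cells and 2.21 ± 0.13 in 4T1 cells). Of 24 immediate-early and AP-1 genes, 11 fell and 5 rose in MDA-MB-231 cells, and 17 fell and 1 rose in 4T1 cells. *FOSB*, another AP-1 subunit, was raised in MDA-MB-231 cells and lowered in 4T1 cells (1.03 ± 0.20 in MDA-MB-231 cells and -1.85 ± 0.20 in 4T1 cells).

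The genes named as lowered in MDA-MB-231 cells alone included genes of apoptosis, guidance receptors, chemokines and mitochondrial translation. *AEN*, an apoptosis-enhancing nuclease (ENSG00000181026, chr15:88621337-88632281 on the plus strand of GRCh38, and ENSMUSG00000030609, chr7:78545602-78560957 on the plus strand of GRCm39), was at 82.9, 81.7 and 83.2 CPM with DMSO and 17.1, 15.3 and 15.3 CPM with ponatinib in MDA-MB-231 cells. In 4T1 cells *AEN* was at 109, 101 and 99.3 CPM with DMSO and 97.1, 91.9 and 92.8 CPM with ponatinib. The change of -2.38 ± 0.080 in MDA-MB-231 cells stood against -0.13 ± 0.072 in 4T1 cells (adjusted p = 0.12), a difference of 2.25 (95% interval 2.02 to 2.47, adjusted p = 6.72e-11). The 4T1 libraries did not overlap either, and the replicate block called this smaller fall (-0.13, adjusted p = 0.043). *PLXNA2*, a plexin receptor of semaphorins, was at 70.6, 63.8 and 68.5 CPM with DMSO and 20.2, 19.5 and 21.4 CPM with ponatinib in MDA-MB-231 cells. In 4T1 cells *PLXNA2* was at 121, 112 and 102 CPM with DMSO and 143, 117 and 107 CPM with ponatinib, where the groups overlapped and the change (0.13) was called only with total counts (0.24). *CXCL3*, a neutrophil-attracting chemokine, was at 21.8, 26.6 and 26.6 CPM with DMSO and 5.29, 6.87 and 6.998 CPM with ponatinib in MDA-MB-231 cells. In 4T1 cells *CXCL3* was at 167, 128 and 137 CPM with DMSO and 145, 127 and 126 CPM with ponatinib, with changes of -1.96 ± 0.14 in MDA-MB-231 cells and -0.11 ± 0.11 in 4T1 cells. *CXCL1*, *CXCL2* and *CXCL3* are close copies of each other, so the split of reads among them is uncertain. Which human copy corresponds to which mouse copy was taken from the symbols alone and was not checked. Differences between the lines in these genes depend on that matching. *MRPS24*, a protein of the mitochondrial small ribosomal subunit, changed by -1.50 ± 0.15 in MDA-MB-231 cells and 0.21 ± 0.11 in 4T1 cells, and *TCF19*, a nuclear factor of G1/S, by -1.47 ± 0.091 in MDA-MB-231 cells and 0.21 ± 0.10 in 4T1 cells. In 4T1 cells each of these last 2 was called higher with the replicate block (0.22, adjusted p = 0.00627 and 0.21, adjusted p = 0.0338) and without DMSO library 1, at 0.37 and 0.29. Both were also called higher there with total counts, at 0.33 each, and without all libraries numbered 1, at 0.29 and 0.37. *TCF19* was called without 4T1 ponatinib library 1 as well, at 0.28.

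Genes raised in MDA-MB-231 cells alone with the largest changes included kinase regulators, a collagen-crosslinking enzyme and a phospholipase. *MAP2K6*, a kinase that activates p38, was at 0.397, 0.517 and 0.314 CPM with DMSO and 11.5, 12.02 and 13.1 CPM with ponatinib in MDA-MB-231 cells. In 4T1 cells *MAP2K6* was at 162, 183 and 192 CPM with DMSO and 129, 143 and 138 CPM with ponatinib. The change of 4.88 ± 0.29 in MDA-MB-231 cells stood against a called but smaller -0.39 ± 0.080 in 4T1 cells, so that this gene also counts as opposite. *LOXL4*, a lysyl oxidase that crosslinks collagen, was at 4.44, 5.56 and 5.47 CPM with DMSO and 52.7, 48.4 and 48.2 CPM with ponatinib in MDA-MB-231 cells. In 4T1 cells *LOXL4* was at 125, 117 and 116 CPM with DMSO and 162, 150.3 and 150.1 CPM with ponatinib, where the rise of 0.37 ± 0.076 was called but below 1.5-fold. *PLA2G6*, a phospholipase A2, changed by 2.74 ± 0.14 in MDA-MB-231 cells and -0.079 ± 0.090 in 4T1 cells. *LBH*, a transcriptional cofactor, changed by 3.10 ± 0.26 in MDA-MB-231 cells and -0.17 ± 0.13 in 4T1 cells, and *CBLB*, a ubiquitin ligase that turns down receptor tyrosine kinases, by 2.49 ± 0.14 in MDA-MB-231 cells and -0.043 ± 0.11 in 4T1 cells. The replicate block called the 4T1 change of *LBH* (-0.17, adjusted p = 0.0214).

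The genes named as lowered in 4T1 cells alone included regulators of growth factor signalling and of secretion. *ERRFI1*, a feedback inhibitor of the EGF receptor (ENSG00000116285, chr1:8004404-8026309 on the minus strand of GRCh38, and ENSMUSG00000028967, chr4:150938376-150955402 on the plus strand of GRCm39), was at 570.1, 593 and 608 CPM with DMSO and 131, 135 and 121 CPM with ponatinib in 4T1 cells. In MDA-MB-231 cells it was at 61.9, 77.1 and 79.3 CPM with DMSO and 65.5, 74.4 and 79.7 CPM with ponatinib. The change was -2.20 ± 0.092 in 4T1 cells and 0.009 ± 0.10 in MDA-MB-231 cells (adjusted p = 0.946). *IGFBP3*, which binds insulin-like growth factors in the extracellular space, was at 191, 205 and 223 CPM with DMSO and 48.8, 42.998 and 47.2 CPM with ponatinib in 4T1 cells. In MDA-MB-231 cells *IGFBP3* was at 37.9, 40.8 and 32.4 CPM with DMSO and 40.6, 45.4 and 42.05 CPM with ponatinib. Its changes were 0.20 ± 0.10 in MDA-MB-231 cells and -2.16 ± 0.091 in 4T1 cells, and the former was called with the replicate block (0.21, adjusted p = 0.0159). Total counts (0.30) and factors over all 12 libraries (0.28) also called it higher in MDA-MB-231 cells. So did the fits without MDA-MB-231 DMSO library 2 (0.27) and without all libraries numbered 1 (0.25). *KDELR3*, a receptor that returns proteins to the endoplasmic reticulum, changed by -0.079 ± 0.11 in MDA-MB-231 cells and -2.01 ± 0.13 in 4T1 cells. *FYN*, a SRC-family kinase, fell in 4T1 cells (-1.58 ± 0.091), as did the membrane transporter *SLC4A11* (-2.24 ± 0.12). Both were called slightly higher in MDA-MB-231 cells (changes of 0.22 ± 0.083 and 0.26 ± 0.11), calls that were lost when some single libraries were left out.

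Raised in 4T1 cells alone, among the genes named, were a ubiquitin ligase, an integrin subunit and metabolic enzymes. *SH3RF2*, a ubiquitin ligase with SH3 domains, was at 1.87, 2.22 and 1.75 CPM with DMSO and 36.2, 39.6 and 35.7 CPM with ponatinib in 4T1 cells. In MDA-MB-231 cells it was at 74.97, 66.5 and 68.97 CPM with DMSO and 90.3, 88.6 and 86.9 CPM with ponatinib, a called rise of 0.34 ± 0.081 beside 4.25 ± 0.13 in 4T1 cells. *ITGA1*, a collagen-binding integrin subunit, was at 1.42, 2.11 and 1.97 CPM with DMSO and 13.6, 13.2 and 12.7 CPM with ponatinib in 4T1 cells, and its changes were 0.28 ± 0.12 in MDA-MB-231 cells and 2.84 ± 0.17 in 4T1 cells, the former called with the replicate block (0.28, adjusted p = 0.0363). Total counts (0.38), factors over all 12 libraries (0.36) and limma-voom (0.28) also called the MDA-MB-231 rise. So did the fits without 4T1 DMSO library 1 (0.28) and without MDA-MB-231 ponatinib library 1 (0.33). *MGST1*, a membrane-bound glutathione transferase, was at 15.5, 13.4 and 17.3 CPM with DMSO and 60.5, 74.8 and 70.2 CPM with ponatinib in 4T1 cells. In MDA-MB-231 cells *MGST1* was at 143, 135 and 142 CPM with DMSO and 139, 133 and 127 CPM with ponatinib. Its changes were -0.076 ± 0.089 in MDA-MB-231 cells and 2.15 ± 0.10 in 4T1 cells. *CRYL1*, an enzyme of glucuronate metabolism, changed by 0.13 ± 0.17 in MDA-MB-231 cells and 2.67 ± 0.24 in 4T1 cells, and *BPGM*, which makes bisphosphoglycerate, by -0.26 ± 0.15 in MDA-MB-231 cells and 2.04 ± 0.12 in 4T1 cells. Without MDA-MB-231 ponatinib library 3, *BPGM* was called lower in MDA-MB-231 cells, at -0.43.

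**Figure D3:**
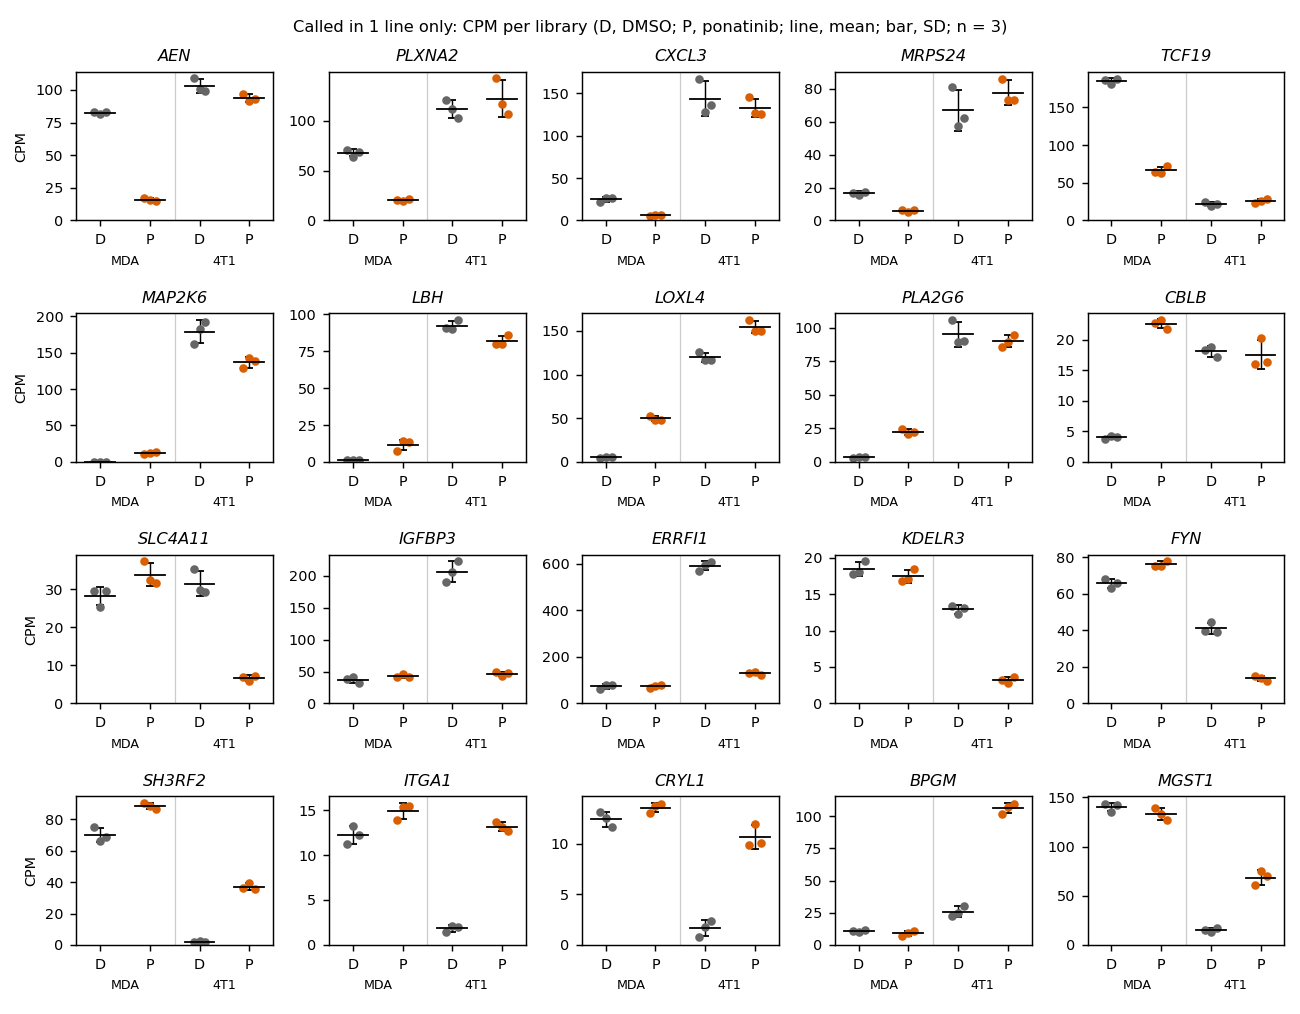
CPM in each library for the 20 genes named as changed in 1 line only, with DMSO (D) and ponatinib (P) in both lines. Points are libraries, horizontal lines are means and bars are SDs (n = 3), and each panel has its own scale from 0. In each panel the points of 1 line move apart, as *ERRFI1* does in 4T1 cells, while the fitted change of the other line stays within 1.5-fold.

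Gene lists also differed in how far 1 line carried the response. Of 47 genes of homologous recombination and DNA repair, 31 fell and 2 rose in MDA-MB-231 cells, and 14 fell and 15 rose in 4T1 cells, with medians of -0.66 in MDA-MB-231 cells and -0.049 in 4T1 cells, the latter 0.068 when scaled by total counts. *FANCG*, a Fanconi anaemia core protein, was at 133, 119 and 110.2 CPM with DMSO and 63.5, 67.5 and 61.3 CPM with ponatinib in MDA-MB-231 cells. In 4T1 cells *FANCG* was at 4.42, 3.33 and 3.22 CPM with DMSO and 5.67, 5.63 and 6.39 CPM with ponatinib. It fell in the former and rose in the latter (-0.91 ± 0.094 in MDA-MB-231 cells and 0.69 ± 0.15 in 4T1 cells), as did *NEIL3*, a DNA glycosylase (-0.87 ± 0.15 in MDA-MB-231 cells and 1.46 ± 0.16 in 4T1 cells), whereas *RBBP8*, which starts the resection of broken ends, fell alike (-0.73 ± 0.14 in MDA-MB-231 cells and -0.78 ± 0.13 in 4T1 cells). Of 74 mitochondrial ribosomal proteins, 42 fell and 7 rose in MDA-MB-231 cells, and 6 fell and 19 rose in 4T1 cells, and 11 counted as opposite, all higher in 4T1 cells. *MRPL36*, of the large subunit, was one of these (-0.83 ± 0.11 in MDA-MB-231 cells and 0.49 ± 0.11 in 4T1 cells). Of 44 proteasome genes, 29 fell and 2 rose in MDA-MB-231 cells, and 10 fell and 7 rose in 4T1 cells, with medians of -0.46 in MDA-MB-231 cells and -0.041 in 4T1 cells, the latter 0.075 when scaled by total counts. Oxidative phosphorylation moved less: of 73 subunit genes, 11 fell and 9 rose in MDA-MB-231 cells, and 4 fell and 25 rose in 4T1 cells, with a called difference for 21.9%. *NDUFV3*, a complex I subunit, was lowered in MDA-MB-231 cells and raised in 4T1 cells (-0.41 ± 0.10 in MDA-MB-231 cells and 0.88 ± 0.091 in 4T1 cells).

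Opposite responses of at least 2-fold in each line were found for 44 genes higher in MDA-MB-231 cells and 25 higher in 4T1 cells, against 64 genes lowered and 200 raised at least 2-fold in both. *GDF15*, a stress-induced cytokine of the TGF-beta superfamily (ENSG00000130513, chr19:18374731-18389176 on the plus strand of GRCh38, and ENSMUSG00000038508, chr8:71082038-71091537 on the minus strand of GRCm39), was at 6.89, 4.85 and 6.78 CPM with DMSO and 49.1, 47.9 and 40.2 CPM with ponatinib in MDA-MB-231 cells. In 4T1 cells *GDF15* was at 161, 142 and 142 CPM with DMSO and 55.2, 48.7 and 51.1 CPM with ponatinib. Its changes were 2.89 ± 0.13 in MDA-MB-231 cells and -1.52 ± 0.10 in 4T1 cells, a difference of -4.41 (95% interval -4.75 to -4.06, adjusted p = 3.26e-12). *CCNG2*, an atypical cyclin linked to cell cycle arrest, was at 10.3, 11.6 and 13.9 CPM with DMSO and 31.7, 38.7 and 38.9 CPM with ponatinib in MDA-MB-231 cells. In 4T1 cells *CCNG2* was at 184, 199 and 207 CPM with DMSO and 79.2, 80.4 and 78.4 CPM with ponatinib, with changes of 1.61 ± 0.11 in MDA-MB-231 cells and -1.31 ± 0.093 in 4T1 cells. *SOX4*, a transcription factor, was at 6.09, 7.37 and 7.22 CPM with DMSO and 27.7, 32.95 and 30.8 CPM with ponatinib in MDA-MB-231 cells. In 4T1 cells *SOX4* was at 213, 213 and 177 CPM with DMSO and 114, 79.3 and 91.3 CPM with ponatinib. Its changes were 2.14 ± 0.15 in MDA-MB-231 cells and -1.08 ± 0.11 in 4T1 cells. *MBNL2*, a splicing regulator, changed by 1.48 ± 0.11 in MDA-MB-231 cells and -1.20 ± 0.093 in 4T1 cells, the secreted protease *HTRA1* by 1.20 ± 0.11 in MDA-MB-231 cells and -1.48 ± 0.10 in 4T1 cells, and *PXDC1* by 1.16 ± 0.085 in MDA-MB-231 cells and -1.13 ± 0.086 in 4T1 cells.

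The genes named as lower in MDA-MB-231 cells and higher in 4T1 cells included matrix proteins, a protease inhibitor and a myosin. *TGM2*, a transglutaminase that crosslinks matrix proteins (ENSG00000198959, chr20:38127385-38166578 on the minus strand of GRCh38, and ENSMUSG00000037820, chr2:157958322-157988359 on the minus strand of GRCm39), was at 324, 312 and 331 CPM with DMSO and 71.5, 66.5 and 73.1 CPM with ponatinib in MDA-MB-231 cells. In 4T1 cells *TGM2* was at 78.4, 63.1 and 68.8 CPM with DMSO and 211, 176 and 181 CPM with ponatinib. Its changes were -2.19 ± 0.088 in MDA-MB-231 cells and 1.43 ± 0.088 in 4T1 cells, a difference of 3.63 (95% interval 3.37 to 3.89, adjusted p = 2.78e-12). *THBS1*, the matrix glycoprotein thrombospondin 1 (ENSG00000137801, chr15:39581079-39599466 on the plus strand of GRCh38, and ENSMUSG00000040152, chr2:117941974-117957616 on the plus strand of GRCm39), was at 277, 346 and 351 CPM with DMSO and 109.8, 129 and 144 CPM with ponatinib in MDA-MB-231 cells. In 4T1 cells *THBS1* was at 4.59, 5.44 and 3.93 CPM with DMSO and 24.01, 19.3 and 19.1 CPM with ponatinib. It changed by -1.35 ± 0.11 in MDA-MB-231 cells and 2.16 ± 0.16 in 4T1 cells. *SERPINB8*, a serine protease inhibitor, was at 22.2, 19.7 and 19.4 CPM with DMSO and 7.12, 9.67 and 7.71 CPM with ponatinib in MDA-MB-231 cells. In 4T1 cells *SERPINB8* was at 0.567, 0.611 and 0.546 CPM with DMSO and 10.9, 13.4 and 12.7 CPM with ponatinib, which gave the largest difference among the 12 opposite genes named here (5.73 (95% interval 5.11 to 6.35, adjusted p = 1.77e-11)). *CDC42EP2*, an effector of the GTPase CDC42, changed by -1.38 ± 0.11 in MDA-MB-231 cells and 1.32 ± 0.12 in 4T1 cells, *MYO7B*, a myosin of microvilli, by -1.49 ± 0.15 in MDA-MB-231 cells and 1.97 ± 0.14 in 4T1 cells, and *GLIPR1* by -1.48 ± 0.10 in MDA-MB-231 cells and 1.11 ± 0.093 in 4T1 cells. That ponatinib and DMSO libraries did not overlap in either line was a condition for naming these 12 genes.

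**Figure D4:**
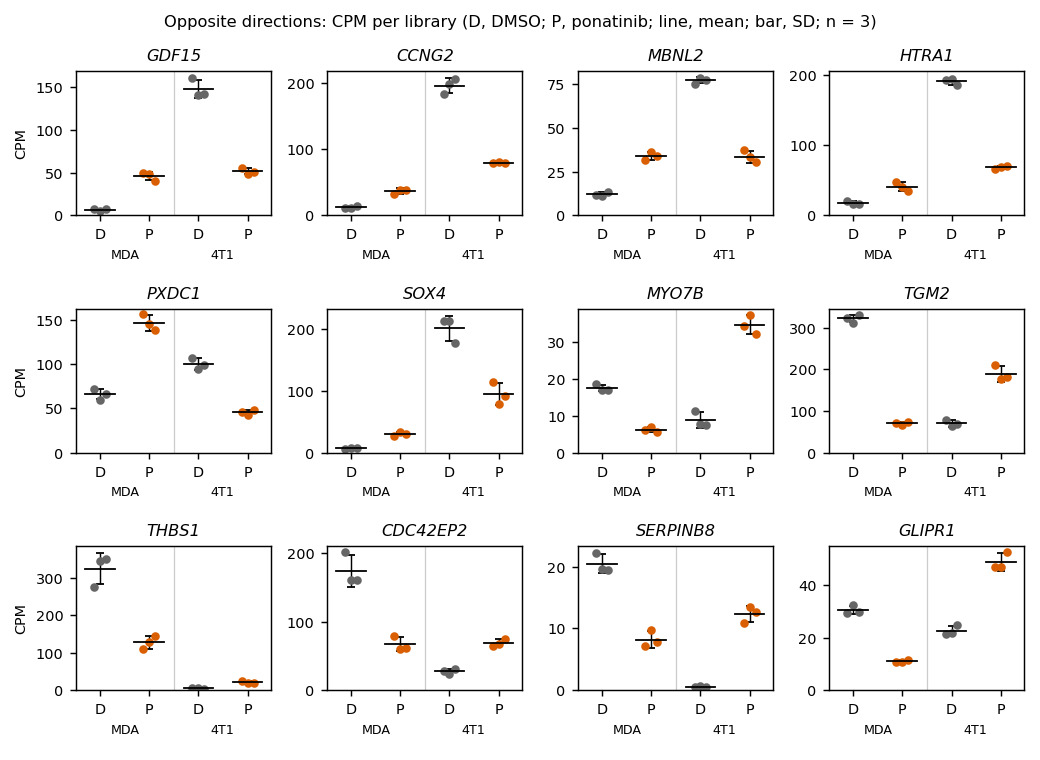
CPM in each library for the 12 named genes that moved in opposite directions, with DMSO (D) and ponatinib (P) in both lines. Points are libraries, horizontal lines are means and bars are SDs (n = 3). In the 6 genes from *GDF15* to *SOX4* the ponatinib points lie higher in MDA-MB-231 cells and lower in 4T1 cells, and in the 6 genes from *MYO7B* to *GLIPR1* the other way round.

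Among the lists, the integrated stress response stood on opposite sides in the 2 lines. In this response eIF2 alpha kinases slow translation, and the transcription factor ATF4 induces genes of amino acid uptake, amino acid synthesis and tRNA charging. Of 42 tested genes, 4 fell and 29 rose in MDA-MB-231 cells, and 28 fell and 3 rose in 4T1 cells, with medians of 0.43 in MDA-MB-231 cells and -0.32 in 4T1 cells. Opposite calls numbered 20, all higher in MDA-MB-231 cells, and the difference was called downward in 4T1 cells for 32. *NUPR1*, a stress-induced chromatin protein, was at 0.795, 0.388 and 0.628 CPM with DMSO and 44.7, 36.3 and 33.02 CPM with ponatinib in MDA-MB-231 cells. In 4T1 cells *NUPR1* was at 248, 241 and 228 CPM with DMSO and 139, 142 and 152 CPM with ponatinib. It changed by 5.96 ± 0.28 in MDA-MB-231 cells and -0.73 ± 0.094 in 4T1 cells. *DDIT4*, an inhibitor of mTORC1, was at 8.41, 10.9 and 13.5 CPM with DMSO and 175, 184 and 217 CPM with ponatinib in MDA-MB-231 cells. In 4T1 cells *DDIT4* was at 485, 416 and 443 CPM with DMSO and 298, 248 and 254 CPM with ponatinib. Its changes were 4.13 ± 0.14 in MDA-MB-231 cells and -0.75 ± 0.11 in 4T1 cells, a difference of -4.88 (95% interval -5.25 to -4.50, adjusted p = 3.26e-12). Not all members followed: *STC2*, a secreted glycoprotein, rose alike (0.66 ± 0.18 in MDA-MB-231 cells and 0.72 ± 0.093 in 4T1 cells), and *PPP1R15A*, the feedback phosphatase subunit known as GADD34, fell in both lines (-1.19 ± 0.085 in MDA-MB-231 cells and -0.58 ± 0.085 in 4T1 cells).

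*TRIB3*, a pseudokinase that ATF4 induces and that feeds back on it, was at 110.1, 95.2 and 93.8 CPM with DMSO and 225, 207 and 188 CPM with ponatinib in MDA-MB-231 cells. In 4T1 cells *TRIB3* was at 444, 405 and 421 CPM with DMSO and 496, 498 and 532 CPM with ponatinib. It rose in both lines, but further in MDA-MB-231 cells (1.05 ± 0.085 in MDA-MB-231 cells and 0.27 ± 0.083 in 4T1 cells, difference -0.79 (95% interval -1.03 to -0.54, adjusted p = 3.02e-05)), unlike most of the list. Its promoters are printed because the mouse one holds a match to the ATF4 motif TGATGCAA, in capitals, at chr2:152191959-152192158, minus strand. The human window, at chr20:381095-381294, plus strand, has none.
*TRIB3*, human: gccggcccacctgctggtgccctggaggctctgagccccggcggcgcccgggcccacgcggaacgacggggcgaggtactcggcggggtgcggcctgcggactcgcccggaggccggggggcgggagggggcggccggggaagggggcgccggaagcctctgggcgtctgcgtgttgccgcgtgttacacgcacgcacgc
*Trib3*, mouse: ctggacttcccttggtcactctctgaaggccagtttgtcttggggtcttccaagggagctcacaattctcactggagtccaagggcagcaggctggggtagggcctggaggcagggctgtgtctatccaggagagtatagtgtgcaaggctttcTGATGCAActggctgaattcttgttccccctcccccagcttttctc
On either strand the motif lay in 2 of 37 human (5.41%, against 0.469% of all) and 2 of 42 mouse promoters of the list (4.76%, against 0.474%), with no member in both.

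Neighbouring stress pathways did not follow the same split. Of 30 genes of ER chaperones and the unfolded protein response, 16 fell and 4 rose in MDA-MB-231 cells, and 26 fell and 1 rose in 4T1 cells, and 12 fell at least 1.5-fold in 4T1 cells alone. *HSPA5*, the ER chaperone BiP, was at 875, 922 and 939.8 CPM with DMSO and 745, 776 and 807 CPM with ponatinib in MDA-MB-231 cells. In 4T1 cells *HSPA5* was at 2628, 2749 and 2757 CPM with DMSO and 894, 889.7 and 859 CPM with ponatinib. Its changes were -0.23 ± 0.073 in MDA-MB-231 cells and -1.62 ± 0.073 in 4T1 cells, with the former no longer called when libraries were scaled by total counts (-0.14) or by factors over all 12 libraries (-0.16). *MANF*, a secreted ER stress protein, fell in both lines (-0.75 ± 0.14 in MDA-MB-231 cells and -1.18 ± 0.15 in 4T1 cells), further in 4T1 cells by the replicate block (-0.44, adjusted p = 0.000106), and *HERPUD1*, a component of ER-associated degradation, moved in opposite directions (0.87 ± 0.077 in MDA-MB-231 cells and -0.56 ± 0.072 in 4T1 cells). Of 19 cytosolic heat shock genes, 14 fell and 2 rose in MDA-MB-231 cells, and 9 fell and 5 rose in 4T1 cells. *HSPA8*, the constitutive HSC70, was at 2716, 2782 and 2702 CPM with DMSO and 801, 841 and 830.1 CPM with ponatinib in MDA-MB-231 cells. In 4T1 cells *HSPA8* was at 665, 582 and 672 CPM with DMSO and 1076, 1139.9 and 1163 CPM with ponatinib. It fell in the former and rose in the latter (-1.73 ± 0.078 in MDA-MB-231 cells and 0.82 ± 0.078 in 4T1 cells), although *HSPA8* has many pseudogenes, while *HSP90AA1* fell alike (-0.87 ± 0.087 in MDA-MB-231 cells and -0.71 ± 0.087 in 4T1 cells). Of 26 NRF2 antioxidant genes, 3 fell and 12 rose in MDA-MB-231 cells, and 9 fell and 13 rose in 4T1 cells. *GCLM*, a subunit of the enzyme that starts glutathione synthesis, was lowered in MDA-MB-231 cells and raised in 4T1 cells (-1.0 ± 0.093 in MDA-MB-231 cells and 1.25 ± 0.090 in 4T1 cells), and *ABCC3*, an efflux transporter, rose in both (3.29 ± 0.17 in MDA-MB-231 cells and 1.61 ± 0.087 in 4T1 cells).

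The circadian clock list was divided as well. Of 17 clock genes, 2 fell and 12 rose in MDA-MB-231 cells, and 12 fell and 2 rose in 4T1 cells, and 16 had a called difference, all with the lower change in 4T1 cells. *PER1*, a repressor of the clock, was at 18.2, 15.9 and 16.02 CPM with DMSO and 39.3, 39.1 and 39.3 CPM with ponatinib in MDA-MB-231 cells. In 4T1 cells *PER1* was at 102, 104 and 92.3 CPM with DMSO and 52.3, 50.9 and 50.1 CPM with ponatinib. Its changes were 1.23 ± 0.088 in MDA-MB-231 cells and -0.96 ± 0.079 in 4T1 cells. *CIART*, another repressor, changed by 1.52 ± 0.30 in MDA-MB-231 cells and -0.66 ± 0.11 in 4T1 cells, the output factor *DBP* rose in both (2.88 ± 0.20 in MDA-MB-231 cells and 1.23 ± 0.19 in 4T1 cells), and the repressor *CRY1* fell in both (-0.39 ± 0.10 in MDA-MB-231 cells and -0.39 ± 0.11 in 4T1 cells), with the 4T1 call lost when libraries were scaled by total counts (-0.28). Cells were collected at a single time, so phase and level of a rhythmic gene cannot be told apart. The promoter of *PER3* is printed because its D-box match TTATGNAA, the motif bound by DBP, lay in both species (chr1:7784091-7784290, plus strand in human and chr4:151129141-151129340, minus strand in mouse, matches in capitals).
*PER3*, human: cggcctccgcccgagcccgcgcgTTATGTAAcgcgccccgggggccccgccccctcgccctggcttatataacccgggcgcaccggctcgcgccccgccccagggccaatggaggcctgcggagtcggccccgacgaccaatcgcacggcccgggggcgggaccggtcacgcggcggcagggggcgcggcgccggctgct
*Per3*, mouse: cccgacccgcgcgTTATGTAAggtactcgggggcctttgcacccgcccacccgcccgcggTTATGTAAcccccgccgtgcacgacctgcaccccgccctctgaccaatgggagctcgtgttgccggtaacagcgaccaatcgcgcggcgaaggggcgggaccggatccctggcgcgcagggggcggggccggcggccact
The motif lay on either strand in 2 of 16 human (12.5%, against 1.54% of all) and 2 of 17 mouse clock promoters (11.8%, against 2.15%). *PER3* was at 3.58, 3.94 and 4.02 CPM with DMSO and 9.26, 9.42 and 8.53 CPM with ponatinib in MDA-MB-231 cells. In 4T1 cells *PER3* was at 5.84, 5.39 and 4.97 CPM with DMSO and 8.38, 6.35 and 6.39 CPM with ponatinib. It rose by 1.23 ± 0.16 and 0.38 ± 0.15, with the latter call lost when 4T1 DMSO library 2 or 3 or ponatinib library 1 was left out, at 0.38, 0.33 and 0.24, and without all libraries numbered 1, at 0.30.

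FOXO targets, which are induced when AKT signalling falls, and autophagy genes leaned upward in MDA-MB-231 cells. Of 24 FOXO targets, 1 fell and 17 rose in MDA-MB-231 cells, and 9 fell and 11 rose in 4T1 cells, with medians of 0.99 in MDA-MB-231 cells and 0.081 in 4T1 cells and 6 opposite calls. *PIK3IP1*, an inhibitor of PI3-kinase, changed by 3.11 ± 0.20 in MDA-MB-231 cells and 0.79 ± 0.25 in 4T1 cells, and *GADD45B*, a stress sensor, rose in both and further in 4T1 cells (0.88 ± 0.085 in MDA-MB-231 cells and 2.52 ± 0.11 in 4T1 cells). Without the libraries numbered 1, the 4T1 change of *PIK3IP1* was 0.57 and not called. Of 39 autophagy genes, 4 fell and 16 rose in MDA-MB-231 cells, and 14 fell and 8 rose in 4T1 cells. *ULK1*, the initiating kinase, was at 35.6, 34.7 and 36.1 CPM with DMSO and 73.9, 75.1 and 76.4 CPM with ponatinib in MDA-MB-231 cells. In 4T1 cells *ULK1* was at 58.7, 51.7 and 50.8 CPM with DMSO and 43.2, 42.3 and 43.01 CPM with ponatinib. It moved in opposite directions (1.08 ± 0.079 in MDA-MB-231 cells and -0.33 ± 0.078 in 4T1 cells), as did *GABARAPL1*, an ATG8 protein (0.97 ± 0.089 in MDA-MB-231 cells and -0.36 ± 0.082 in 4T1 cells), whereas *ATG7*, the enzyme that activates ATG8 proteins, fell in both (-0.45 ± 0.085 in MDA-MB-231 cells and -0.69 ± 0.078 in 4T1 cells), with a difference called by the replicate block (-0.24, adjusted p = 0.0434). Of 18 G1 cyclins, CDKs and CDK inhibitors, 11 fell and 5 rose in MDA-MB-231 cells, and 12 fell and 2 rose in 4T1 cells, and *CDKN1A*, which encodes p21, fell in both (-2.67 ± 0.086 in MDA-MB-231 cells and -0.81 ± 0.083 in 4T1 cells). Of 22 genes of the BCL2 family and caspases, 12 fell and 7 rose in MDA-MB-231 cells, and 7 fell and 8 rose in 4T1 cells. *BBC3*, the BH3-only protein PUMA, was raised in MDA-MB-231 cells and lowered in 4T1 cells (1.86 ± 0.15 in MDA-MB-231 cells and -0.51 ± 0.13 in 4T1 cells).

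**Figure D5:**
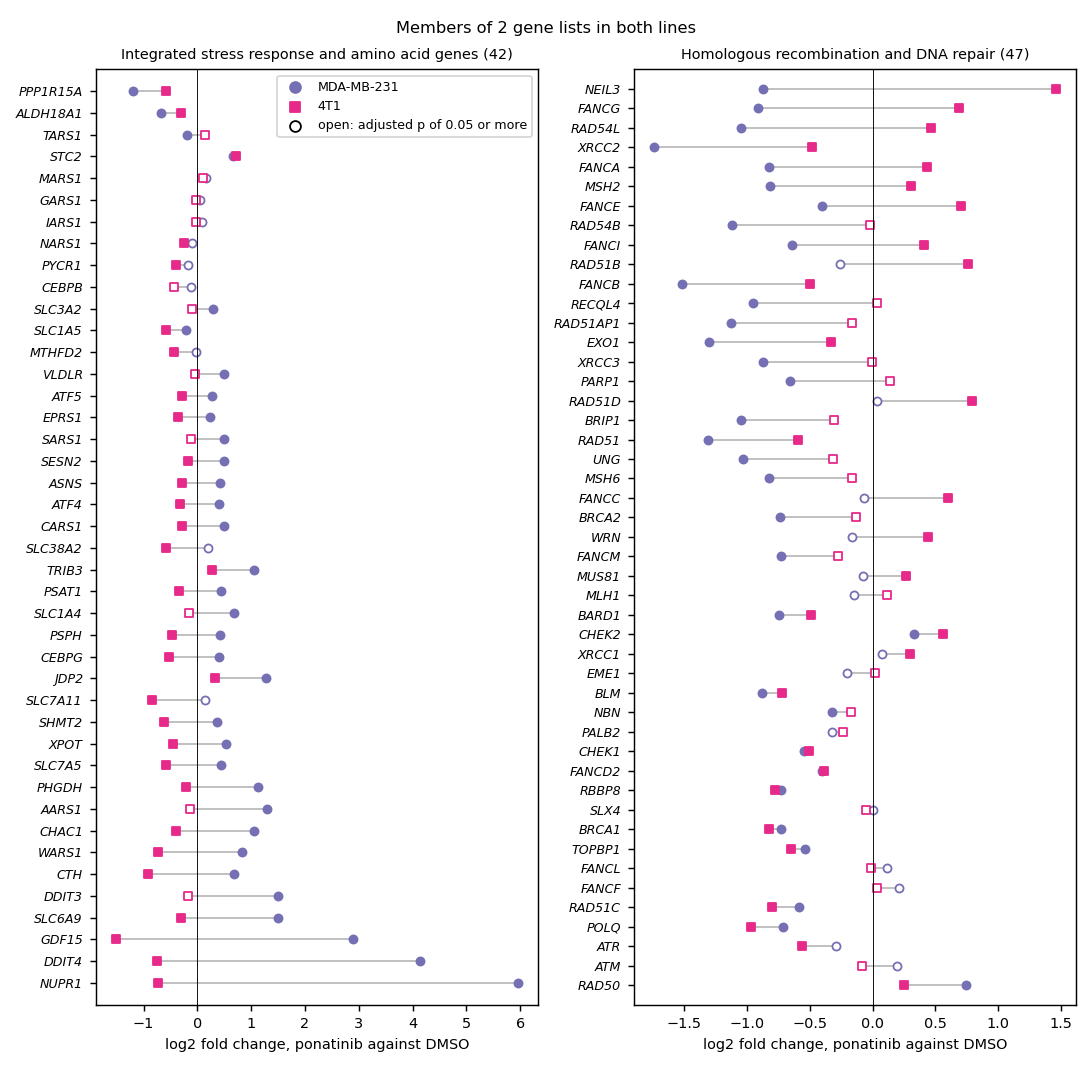
Log2 fold change of ponatinib against DMSO in MDA-MB-231 and 4T1 cells, for each tested member of the integrated stress response and DNA repair lists. A grey line joins the points of each gene, and open symbols mark changes that were not called. Most stress response genes lie above 0 in MDA-MB-231 cells and most lie below 0 in 4T1 cells, and *DDIT4* (4.13 and -0.75) does both. Of the 47 repair genes, 25 have a called difference with the lower change in MDA-MB-231 cells, against 1 with the lower change in 4T1 cells.

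Secreted signals of inflammation and growth were lowered in both lines for some genes and divided for others. *CXCL1*, a neutrophil-attracting chemokine that the study examined further (ENSG00000163739, chr4:73869393-73871308 on the plus strand of GRCh38, and ENSMUSG00000029380, chr5:91039094-91040974 on the plus strand of GRCm39), was at 386, 415 and 403 CPM with DMSO and 68.5, 69.7 and 69.1 CPM with ponatinib in MDA-MB-231 cells. In 4T1 cells *CXCL1* was at 241, 168 and 200.4 CPM with DMSO and 129.6, 117 and 117 CPM with ponatinib. It fell in both lines, with changes of -2.54 ± 0.10 and -0.75 ± 0.10, a difference of 1.79 (95% interval 1.49 to 2.09, adjusted p = 2.48e-08). *CXCL2*, a close copy, was at 45.2, 51.2 and 48.9 CPM with DMSO and 22.6, 26.3 and 24.99 CPM with ponatinib in MDA-MB-231 cells. In 4T1 cells *CXCL2* was at 45.4, 35.5 and 42.3 CPM with DMSO and 9.398, 7.64 and 8.94 CPM with ponatinib. It also fell in both, but further in 4T1 cells (-0.98 ± 0.11 in MDA-MB-231 cells and -2.25 ± 0.12 in 4T1 cells, difference -1.27 (95% interval -1.61 to -0.93, adjusted p = 4.5e-06)). *CXCL10*, an interferon-induced chemokine, was raised from a low level in MDA-MB-231 cells and lowered in 4T1 cells (2.79 ± 0.65 in MDA-MB-231 cells and -1.78 ± 0.23 in 4T1 cells), and of 8 chemokines tested 2 fell and 3 rose in both lines. Of 17 cytokines and colony-stimulating factors, 7 fell and 8 rose in MDA-MB-231 cells, and 11 fell and 5 rose in 4T1 cells, and *CSF2*, which encodes GM-CSF, fell in both (-3.18 ± 0.26 in MDA-MB-231 cells and -3.07 ± 0.14 in 4T1 cells). *PTGS2*, the inducible cyclooxygenase, was at 37.3, 44.5 and 43.3 CPM with DMSO and 3.02, 4.71 and 3.66 CPM with ponatinib in MDA-MB-231 cells. In 4T1 cells *PTGS2* was at 1114, 1096 and 1069 CPM with DMSO and 163, 142 and 136 CPM with ponatinib. It fell in both lines, with changes of -3.46 ± 0.14 and -2.90 ± 0.094, while *PTGS1*, the constitutive form, moved in opposite directions (1.18 ± 0.29 in MDA-MB-231 cells and -0.86 ± 0.12 in 4T1 cells), and of 8 prostaglandin and eicosanoid genes 3 fell and 4 rose in MDA-MB-231 cells, and 4 fell and 1 rose in 4T1 cells.

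Of 19 NF-kB subunits and feedback genes, 12 fell and 4 rose in MDA-MB-231 cells, and 5 fell and 9 rose in 4T1 cells, with medians of -0.40 in MDA-MB-231 cells and 0.12 in 4T1 cells. *NFKBIE*, an inhibitor of NF-kB, was at 105, 86.8 and 97.7 CPM with DMSO and 82.7, 62.6 and 60.7 CPM with ponatinib in MDA-MB-231 cells. In 4T1 cells *NFKBIE* was at 8.56, 7.496 and 8.195 CPM with DMSO and 24.7, 23.6 and 25.8 CPM with ponatinib. It fell in the former and rose in the latter (-0.49 ± 0.11 in MDA-MB-231 cells and 1.61 ± 0.13 in 4T1 cells), as did *BIRC3*, an inhibitor of apoptosis (-0.60 ± 0.11 in MDA-MB-231 cells and 1.11 ± 0.11 in 4T1 cells), whereas *TRAF1*, an adaptor of TNF receptors, fell in both (-0.90 ± 0.11 in MDA-MB-231 cells and -2.03 ± 0.094 in 4T1 cells) and *BCL3*, a nuclear cofactor, rose in both (0.81 ± 0.11 in MDA-MB-231 cells and 0.64 ± 0.10 in 4T1 cells). Of 24 cytokine receptors, 10 fell and 6 rose in MDA-MB-231 cells, and 3 fell and 13 rose in 4T1 cells. *TNFRSF12A*, the receptor of TWEAK, fell in both (-1.53 ± 0.085 in MDA-MB-231 cells and -0.68 ± 0.084 in 4T1 cells), and *TNFRSF11B*, the decoy receptor osteoprotegerin, was divided (-0.74 ± 0.24 in MDA-MB-231 cells and 2.0 ± 0.13 in 4T1 cells), with an MDA-MB-231 call that was lost without DMSO library 3 (-0.61) or ponatinib library 1 (-0.51). Of 13 EGF receptor ligands and receptors, 6 fell and 4 rose in MDA-MB-231 cells, and 7 fell and 2 rose in 4T1 cells. *HBEGF*, a ligand of the EGF receptor and an ERK target, was at 167, 171 and 169 CPM with DMSO and 28.3, 28.2 and 29.5 CPM with ponatinib in MDA-MB-231 cells. In 4T1 cells *HBEGF* was at 378, 358 and 363 CPM with DMSO and 135, 131 and 134 CPM with ponatinib. It fell in both lines, with changes of -2.56 ± 0.068 and -1.46 ± 0.063, and so did the ligand *TGFA*, with changes of -1.82 ± 0.12 and -0.91 ± 0.10. Of 17 SRC, ABL and p38 kinases, 7 fell and 4 rose in MDA-MB-231 cells, and 7 fell and 5 rose in 4T1 cells, and 7 counted as opposite. *MAPK14*, which encodes p38 alpha, was at 128, 138 and 142 CPM with DMSO and 93.4, 110.1 and 109.7 CPM with ponatinib in MDA-MB-231 cells. In 4T1 cells *MAPK14* was at 149.8, 159 and 143 CPM with DMSO and 188, 178 and 174 CPM with ponatinib. It fell in the former and rose in the latter (-0.39 ± 0.080 in MDA-MB-231 cells and 0.26 ± 0.079 in 4T1 cells), with a 4T1 change of 0.22 that was not called without DMSO library 3, and *ABL2*, a kinase of the ABL family, fell alike (-0.70 ± 0.10 in MDA-MB-231 cells and -0.77 ± 0.10 in 4T1 cells).

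Matrix and adhesion genes were divided too. Of 28 collagens and laminins, 5 fell and 18 rose in MDA-MB-231 cells, and 11 fell and 12 rose in 4T1 cells, with medians of 0.63 in MDA-MB-231 cells and -0.13 in 4T1 cells. *COL1A1*, a chain of type I collagen, rose in both (1.43 ± 0.10 in MDA-MB-231 cells and 1.26 ± 0.14 in 4T1 cells), and *COL16A1*, a minor fibril-associated collagen, rose in MDA-MB-231 cells (2.49 ± 0.16) without a call in 4T1 cells (-0.31 ± 0.18, adjusted p = 0.135). *FN1*, the matrix protein fibronectin, was at 109, 121 and 139 CPM with DMSO and 184, 211 and 224 CPM with ponatinib in MDA-MB-231 cells. In 4T1 cells *FN1* was at 3689, 3486 and 3057 CPM with DMSO and 1129.5, 881 and 895 CPM with ponatinib. It moved in opposite directions (0.75 ± 0.12 in MDA-MB-231 cells and -1.82 ± 0.11 in 4T1 cells). Of 23 matricellular proteins and crosslinkers, 10 fell and 8 rose in MDA-MB-231 cells, and 9 fell and 11 rose in 4T1 cells. *HAS2*, which makes hyaluronan, was lowered in both and further in MDA-MB-231 cells (-5.84 ± 0.35 in MDA-MB-231 cells and -2.0 ± 0.23 in 4T1 cells), and *CCN2*, a YAP target, was lowered there and raised in 4T1 cells (-1.60 ± 0.10 in MDA-MB-231 cells and 0.48 ± 0.11 in 4T1 cells). Of 23 matrix proteases and inhibitors, 10 fell and 5 rose in MDA-MB-231 cells, and 11 fell and 7 rose in 4T1 cells. *ADAMTS1*, a secreted protease, fell in both (-2.83 ± 0.15 in MDA-MB-231 cells and -2.55 ± 0.15 in 4T1 cells, difference 0.28 (95% interval -0.17 to 0.74, adjusted p = 0.285), an interval that reaches beyond 1.5-fold). Of 14 integrins, 4 fell and 6 rose in MDA-MB-231 cells, and 6 fell and 3 rose in 4T1 cells. *ITGB4* rose in both (2.0 ± 0.091 in MDA-MB-231 cells and 1.37 ± 0.091 in 4T1 cells) and *ITGA6* fell alike (-1.22 ± 0.10 in MDA-MB-231 cells and -1.02 ± 0.10 in 4T1 cells, with a difference called by the replicate block at 0.20, adjusted p = 0.0403), while *ITGA3* fell in 4T1 cells (-1.39 ± 0.079) and was at -0.015 ± 0.079 in MDA-MB-231 cells (adjusted p = 0.882). Of 36 epithelial junction and keratin genes, 3 fell and 19 rose in MDA-MB-231 cells, and 9 fell and 12 rose in 4T1 cells. *TJP3*, a tight junction scaffold, was at 0.5298, 0.259 and 0.565 CPM with DMSO and 6.68, 6.04 and 5.47 CPM with ponatinib in MDA-MB-231 cells. In 4T1 cells *TJP3* was at 2.55, 1.78 and 2.95 CPM with DMSO and 24.4, 26.4 and 26.1 CPM with ponatinib. It rose in both (3.72 ± 0.34 in MDA-MB-231 cells and 3.40 ± 0.17 in 4T1 cells), as did the mucin *MUC1* (1.65 ± 0.24 in MDA-MB-231 cells and 1.38 ± 0.15 in 4T1 cells).

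Genes that the filter kept in 1 line only were not tested for a difference and were examined within that line. Those fits held all genes kept in the line, whether or not they were shared or protein-coding. Of 14610 such genes in MDA-MB-231 cells, 26.8% were lower and 27.2% higher. Of 13286 in 4T1 cells, 29.4% were lower and 29.5% higher. The filter keeps a gene that is high enough in either treatment group, so genes that are low in the other group are among those counted. Counts of these genes were not repeated with other scalings. Among the 1558 genes kept in MDA-MB-231 cells only, 298 were lower and 585 higher. *IL1B*, which encodes the inflammatory cytokine interleukin-1 beta, was at 308, 327 and 325 CPM with DMSO and 8.44, 8.33 and 7.82 CPM with ponatinib in MDA-MB-231 cells. Every 4T1 library held it below 1 CPM, and its change in MDA-MB-231 cells was -5.29 ± 0.085. *ESM1*, a secreted proteoglycan, fell (a change of -5.08 ± 0.13) and the scaffold protein *MPP4* too (-3.60 ± 0.20), whereas *KCP*, a modulator of BMP signalling, rose by 4.48 ± 0.27, *OLFML2A*, an olfactomedin-like protein, by 3.47 ± 0.18 and *AQP3*, a channel for water and glycerol, by 3.27 ± 0.16. Among the 1004 genes kept in 4T1 cells only, 239 were lower and 396 higher. *ACAN*, the proteoglycan aggrecan, was at 607, 613 and 502 CPM with DMSO and 56.9, 47.5 and 50.5 CPM with ponatinib in 4T1 cells, a change of -3.47 ± 0.095. *CSN3*, the milk protein kappa-casein, fell (a change of -5.37 ± 0.28) and *NDST3*, an enzyme of heparan sulfate synthesis, did too (-4.46 ± 0.18). *SPTSSB*, a subunit of serine palmitoyltransferase, was at 1.36, 1.28 and 1.09 CPM with DMSO and 28.2, 29.7 and 29.1 CPM with ponatinib in 4T1 cells and rose by 4.54 ± 0.17, as did *PPP1R1B*, a phosphatase inhibitor (4.22 ± 0.19), and *ACE*, the angiotensin-converting enzyme (4.14 ± 0.21). Each of these genes stayed below 1 CPM in every library of the other line. In MDA-MB-231 cells *SPTSSB* held 3 counts over the DMSO libraries and 15 over the ponatinib libraries, a ratio of 4.66 (95% exact binomial interval 1.32 to 25.1). *ACE* held 1 and 10 (9.32, interval 1.33 to 404), and *ACAN* held 4 and 1 (0.233, interval 0.0047 to 2.35). These intervals cover counting error only, and a difference between the lines was not tested.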

How the data were processed

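Total RNA of 12 samples was sequenced after library preparation with the NEBNext Ultra kit. Per the study's methods and the submitters' processing notes, the authors aligned reads with HISAT2 to hg38 (human) or GRCm39 (mouse) and summed them over genes with HTSeq. What they deposited are unnormalized counts, 1 value per Ensembl gene in each library. Tool versions, the annotation and the strand setting are not given in the sources used here. Without them, reads of overlapping genes cannot be assigned with certainty, and 139 of the 153 genes named overlap another annotated gene in at least 1 species, 60 of them on the same strand.

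Symbols and biotypes came from GENCODE v44 and vM39, which matched 81.9% of human identifiers (99.3% of counts) and 91.1% of mouse identifiers (99.8%). One shared protein-coding symbol was left out because more than 1 gene carries it. Of 16249 shared genes, 9806 passed edgeR's filterByExpr in each line, 1558 only in MDA-MB-231 cells, 1004 only in 4T1 cells and 3881 in neither. edgeR 4.0.16 in R 4.3.3 fitted 1 quasi-likelihood model to all 12 libraries, with 1 mean per group and trimmed mean of M-values (TMM) factors computed within each line. Contrasts gave the change in each line and their difference, with p-values adjusted by Benjamini-Hochberg over the 9806 genes and called below 0.05. Intervals at 95% used the model's SE and t quantile. The common biological coefficient of variation was 0.087, and the median half-width of the interval of a difference was 0.33 on the log2 scale, which sets what could be resolved. On simulated counts for these 9806 genes the test of the difference recovered 70% of genes changed 1.5-fold, 85% of those changed 2-fold and 100% of those changed 4-fold, with 3 false calls, and the intervals covered 95.3% of true values. Only 50, 100 and 50 genes were given these differences, far fewer than the 5054 called in the data. The simulated libraries were independent, whereas those of the data deviated together by number. These rates therefore describe the simulation and need not hold for the data. Genes kept in 1 line only were fitted in that line.

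Samples were grouped by the labelled line and treatment. Nothing says that the 3 libraries of a group came from separate experiments, so p-values measure the spread between these libraries, which may be technical. Libraries with the same number deviated together from their group means within a line (correlations of 0.63, 0.28 and 0.33 in MDA-MB-231 cells and 0.28, 0.25 and 0.18 in 4T1 cells for numbers 1 to 3), so the number may pair DMSO and ponatinib libraries. The main model left this pairing out, and the number was fitted as a block only as an alternative. No 2 libraries of a group agreed within sampling noise (chi-square per gene 3.24 to 21.3, highest where a library numbered 1 was involved). Genes were named by fixed rules: the largest changes in each class with a mean of 10 CPM or more in either group and libraries that did not overlap where called, 3 falls and 3 rises among genes expressed in 1 line only, up to 4 members of each list, promoter examples, and genes the study examined. Some genes that these rules select are not reported here. The members, lists and rules were chosen with earlier results of these data known, and no set test was run. Alternatives were DESeq2 1.42.0, limma-voom (limma 3.58.1), other scalings and filters, all genes with a shared symbol, each line fitted apart, a fold limit, the block, and leaving out each library. Promoters were the 200 bases before the gene start, from RefSeq for 13013 shared human genes and from GRCm39 for 16249 mouse genes.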

Additional observations from a re-analysis of the deposited data

Results flagged for a closer look

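The change under ponatinib differed between MDA-MB-231 and 4T1 cells, by the edgeR test of that difference, for 5054 of the 9806 shared genes. Among the genes named, each value here is the log2 difference, 4T1 minus MDA-MB-231, with an adjusted p below 0.05 over all tested genes. Of the genes that changed in MDA-MB-231 cells alone, those lowered there had differences of 2.25 for *AEN*, 1.86 for *PLXNA2*, 1.85 for *CXCL3*, 1.71 for *MRPS24* and 1.68 for *TCF19*. Those raised there had differences of -5.27 for *MAP2K6*, -3.27 for *LBH*, -2.90 for *LOXL4*, -2.82 for *PLA2G6* and -2.54 for *CBLB*. Of the genes of 4T1 cells alone, those lowered had differences of -2.50 for *SLC4A11*, -2.36 for *IGFBP3*, -2.21 for *ERRFI1*, -1.93 for *KDELR3* and -1.80 for *FYN*. Those raised in 4T1 cells alone had differences of 3.91 for *SH3RF2*, 2.56 for *ITGA1*, 2.55 for *CRYL1*, 2.30 for *BPGM* and 2.23 for *MGST1*. Opposite genes that were higher in MDA-MB-231 cells had differences of -4.41 for *GDF15*, -2.92 for *CCNG2*, -2.69 for *MBNL2*, -2.68 for *HTRA1*, -2.29 for *PXDC1* and -3.22 for *SOX4*. Opposite genes that were higher in 4T1 cells had differences of 3.46 for *MYO7B*, 3.63 for *TGM2*, 3.50 for *THBS1*, 2.70 for *CDC42EP2*, 5.73 for *SERPINB8* and 2.58 for *GLIPR1*. For genes that moved the same way with a different size, the values were 3.20 for *CSF3*, 2.20 for *SPRY4*, 2.16 for *ETV4*, 1.99 for *MAFF*, -6.78 for *ELF3*, -2.37 for *PIK3C2B*, -2.35 for *BMF*, -2.44 for *TM4SF1*, -2.06 for *TNC*, -1.63 for *JUN*, -1.52 for *PLK3*, 2.16 for *CMBL*, 1.88 for *NEU1* and 1.71 for *GM2A*. For the genes that the study examined, they were 1.79 for *CXCL1*, -1.27 for *CXCL2* and 0.64 for *MAPK14*. Early-response genes and growth factor genes gave 1.10 for *FOSL1*, -2.89 for *FOSB*, 1.10 for *HBEGF*, 0.91 for *TGFA*, 0.52 for *EPHA2* and -0.33 for *ODC1*. Cytokine, chemokine and prostaglandin genes gave -4.57 for *CXCL10*, 0.56 for *PTGS2*, -2.04 for *PTGS1*, 2.11 for *NFKBIE*, 1.71 for *BIRC3*, -1.13 for *TRAF1*, 2.74 for *TNFRSF11B* and 0.85 for *TNFRSF12A*. Matrix and adhesion genes gave 3.84 for *HAS2*, -2.80 for *COL16A1*, -2.56 for *FN1*, 2.08 for *CCN2*, 1.74 for *LIMA1*, -1.38 for *ITGA3* and -0.63 for *ITGB4*. Interferon and antigen presentation genes gave 3.08 for *CD274* and -2.72 for *CD74*. Genes of lipid metabolism and the lysosome gave -0.56 for *ACSS2*, 3.55 for *ANGPTL4*, -0.46 for *NR1H3* and -1.89 for *CTSD*. Genes of the stress responses, antioxidant defence and autophagy gave -6.69 for *NUPR1*, -4.88 for *DDIT4*, 0.62 for *PPP1R15A*, -0.79 for *TRIB3*, -1.43 for *HERPUD1*, -1.39 for *HSPA5*, 2.55 for *HSPA8*, 2.25 for *GCLM*, -1.68 for *ABCC3*, -1.41 for *ULK1* and -1.33 for *GABARAPL1*. Genes of mitochondria, ribosome production, the cell cycle and repair gave 1.29 for *NDUFV3*, 1.32 for *MRPL36*, 1.26 for *BYSL*, 1.85 for *RRM2*, 1.69 for *GINS2*, 1.49 for *CENPM*, 2.33 for *NEIL3*, 1.60 for *FANCG* and 1.86 for *CDKN1A*. Genes of apoptosis, FOXO signalling, the clock, the cilium and BMP output gave -2.37 for *BBC3*, -2.31 for *PIK3IP1*, 1.64 for *GADD45B*, -2.19 for *PER1*, -2.18 for *CIART*, -1.65 for *DBP*, -0.85 for *PER3*, -2.17 for *BBS9* and -1.67 for *ATOH8*. Each group had 3 libraries, so no test for a library far from its group was made.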

How the results depend on the processing

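The number of genes with a called difference between the lines was 5054, and it ranged from 4786 to 6239 over DESeq2, limma-voom, other scalings and filters, all genes with a shared symbol and the replicate block. Leaving out 1 library at a time gave 4584 to 5237 genes with a called difference, 2525 to 2895 in the same direction, 933 to 1170 opposite, 1074 to 1303 alike, 894 to 1084 of MDA-MB-231 cells alone and 763 to 957 of 4T1 cells alone. Without all libraries numbered 1, chosen after seeing the data, these counts were 5606, 3023, 1309, 1522, 1031 and 1041. Counts moved by over 1.5 times in 2 settings. A fold of at least 1.5 as an added condition left 3346 called differences, 905 genes in the same direction and 242 in opposite directions, since fewer genes can then be called. The replicate block raised the genes alike from 1293 to 1982, with 6239 called differences, 3519 genes in the same direction, 1571 opposite, 1204 of MDA-MB-231 cells alone and 1057 of 4T1 cells alone. The block brought 13 further values of named genes past the threshold, each given beside its gene, and changed no other call. Of 9270 values of named genes under all alternatives, 9183 kept their side of the threshold, 42 lost a call, 45 gained one and 0 called values reversed, while values that were not called could change sign. Of 104 list medians, 85 moved by more than the spread between libraries when scaled by total counts and 17 changed sign. With a minimum of 10 counts in every library, 12 of the named genes do not pass and have no value: *ANGPTL4*, *CIART*, *CSF3*, *CXCL10*, *ELF3*, *GBP2*, *HAS2*, *IFIT3*, *MAP2K6*, *NUPR1*, *PTGS1* and *TJP3*. For the depth, the median half-width of 0.33 limits small differences: a gene without a call was not shown to respond alike.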

Other observations

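The 13 gene lists not described above covered receptors of growth factors, JAK-STAT components, complement, glycolysis, p53 targets, YAP and SRF targets, mesenchymal factors, TGF-beta, Wnt and Notch genes, retinoid metabolism, and semaphorins with ephrins. Their median changes ran from -0.41 to 1.18 in MDA-MB-231 cells and from -1.11 to 0.94 in 4T1 cells, and a difference was called for 44% to 73.3% of their members, against 51.5% of all genes. Of 7 tested receptors of the FGF, PDGF, VEGF and KIT families, which are themselves targets of ponatinib, 1 was lower and 3 higher in MDA-MB-231 cells, and 4 were lower and 1 higher in 4T1 cells. Of 6 complement genes, 5 rose in MDA-MB-231 cells and 4 in 4T1 cells. Of 30 output genes of BMP and TGF-beta signalling, 8 fell and 11 rose in MDA-MB-231 cells, and 12 fell and 13 rose in 4T1 cells. *ATOH8*, a helix-loop-helix factor induced by BMP, was at 1.72, 2.39 and 1.76 CPM with DMSO and 87.1, 69.9 and 57.7 CPM with ponatinib in MDA-MB-231 cells. In 4T1 cells *ATOH8* was at 8.27, 7.33 and 7.21 CPM with DMSO and 85.6, 84.4 and 91.5 CPM with ponatinib. It rose by 5.19 ± 0.20 and 3.52 ± 0.14, with no overlap of libraries in either line. Of 38 SRF and actin cytoskeleton genes, 18 fell and 8 rose in MDA-MB-231 cells, and 16 fell and 6 rose in 4T1 cells, and *LIMA1*, an actin-binding protein, fell in the former and rose in the latter (-0.56 ± 0.087 in MDA-MB-231 cells and 1.18 ± 0.086 in 4T1 cells).

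Over all 52 lists, medians had the same sign in both lines for 36. Set against the median of all genes, 15 lists lay below it in both lines, 18 above it in both and 19 on different sides. The share of members with a called difference ran from 12.8% for cytosolic ribosomal proteins to 94.1% for the circadian clock, and 42 lists had a larger share than all genes.

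In more genes than not, the line with the higher level in DMSO had the lower change with ponatinib. The level with DMSO was taken from the DMSO libraries numbered 1, and the difference in response from a fit without those DMSO libraries. The ponatinib libraries numbered 1 stayed in that fit. They deviated together with the DMSO libraries numbered 1 (correlations of 0.63 in MDA-MB-231 cells and 0.28 in 4T1 cells), so the 2 measures are not fully apart. Across the 9806 genes, Pearson's r between the log2 ratio of DMSO levels (4T1 over MDA-MB-231, CPM with 1 added) and the difference in response was -0.34, and Spearman's rho was -0.35. These are values across genes that share libraries, with no p, and gene lengths and annotations differ between the species. Of the 1113 opposite genes, 854 (76.7%) were higher in 1 line with DMSO and changed relatively downward there, as were 3345 of 4906 genes with a called difference in that fit (68.2%) and 6091 of all 9806 (62.1%). The 1113 genes were chosen as opposite by the main model, which held the DMSO libraries numbered 1, so their share is not independent of that choice. Of the 12 opposite genes named, 9 lay closer between the lines with ponatinib than with DMSO. These levels are means over all libraries of a group, and the genes were picked by their changes between the same groups. That count is therefore not independent of the choice, and it was not made over all genes.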
